A study of Homo sapiens with 8 samples.

Results

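Mitochondrial ribosomal protein genes were examined in RNA-seq counts of 8 tumours that grew in nude mice from MDA-MB-231, a long-established cell line of human triple-negative breast cancer. The cells were CDK4WT (4 libraries) or CDK4KO (4 libraries). CDK4 encodes a cyclin D-dependent kinase that acts at entry into S phase, and the series is about its role in cytoskeletal contractility. The labels give neither the method of gene disruption, nor whether the CDK4KO cells were 1 clone, nor the age of the hosts. Nude mice lack most T cells, and a tumour also holds host cells. The members are the protein-coding genes whose symbol is MRPL or MRPS followed by a number and an optional letter. The rule found 77 of the 13546 deposited genes, 48 with an MRPL symbol (large subunit) and 29 with an MRPS symbol (small subunit), spread over 21 chromosomes. MRPL53, which has such a symbol, was not analysed here.

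The mitochondrial ribosome translates the few proteins that mitochondrial DNA encodes, all of them parts of the oxidative phosphorylation machinery. Its ribosomal RNAs come from mitochondrial DNA, whereas every one of its proteins is encoded in the nucleus, made in the cytosol and imported. The small subunit decodes the messenger RNA and the large subunit forms the peptide bonds. Some of the proteins descend from bacterial ribosomal proteins and others were added in mitochondria. Symbols do not always follow the structure: MRPS18A and MRPS30 are proteins of the large subunit, and the MRPS36 product belongs to the oxoglutarate dehydrogenase complex.

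Promoter sequence was read from RefSeq (GRCh38.p14) for 68 of the 77 genes, as a window of 250 bases before the start and 50 from it on. The letters CCGGAAG, the core bound by ETS factors such as GABPA, occurred on either strand in 28 of 68 windows (41.2%), against 19.4% of 10049 coding genes of the table. The letters AAGATGGCG, a YY1 core that often spans the start codon, occurred in 13 of 68 (19.1%), against 4.02%. Both subunits held them, with the ETS letters in 16 of 41 large and 12 of 27 small subunit windows and the YY1 letters in 8 of 41 and 5 of 27. The 5 stretches that follow each run from 120 bases before the start through 30 bases from it on, on the minus strand, and capitals mark the ETS and YY1 letters. MRPL16 and MRPL20 are shown because both were among the genes with the smallest p between genotypes, in opposite directions, MRPS10 and MRPS18A because they hold both sets of letters, and MRPL46 because it starts back to back with another member, MRPS11.
MRPL16 (chr11:59810749-59810898): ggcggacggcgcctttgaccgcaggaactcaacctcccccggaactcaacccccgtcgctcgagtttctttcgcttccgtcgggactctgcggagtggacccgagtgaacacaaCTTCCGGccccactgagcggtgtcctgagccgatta
MRPL20 (chr1:1407264-1407413): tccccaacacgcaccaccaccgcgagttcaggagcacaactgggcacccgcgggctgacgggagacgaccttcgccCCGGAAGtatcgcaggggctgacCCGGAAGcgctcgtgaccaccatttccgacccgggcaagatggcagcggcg
MRPS10 (chr6:42217832-42217981): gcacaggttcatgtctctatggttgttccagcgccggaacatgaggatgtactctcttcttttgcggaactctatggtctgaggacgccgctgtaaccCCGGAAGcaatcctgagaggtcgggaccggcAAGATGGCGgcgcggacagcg
MRPS18A (chr6:43687762-43687911): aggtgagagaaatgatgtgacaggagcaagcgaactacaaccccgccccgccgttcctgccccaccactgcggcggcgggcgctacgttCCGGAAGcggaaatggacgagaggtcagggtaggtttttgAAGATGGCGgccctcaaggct
MRPL46 (chr15:88467359-88467508): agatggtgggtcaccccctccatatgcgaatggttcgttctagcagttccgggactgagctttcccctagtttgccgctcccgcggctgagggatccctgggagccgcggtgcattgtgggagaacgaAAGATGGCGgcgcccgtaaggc

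In MRPS10 and MRPS18A the ETS letters began 22 and 31 bases before the start and the YY1 letters began at position 10 after it. Over all members the ETS letters began at a median of 22 bases before the start (37 occurrences in 28 genes). The YY1 letters began at positions 1 to 40 in 10 of 14 occurrences (71.4%), and in 68.0% of those in coding genes of the table, so this placement was not particular to the members. The NRF1 letters GCGCATGCG occurred in 3 of 68 windows (4.41%, against 3.77%) and the looser GCGCNTGCG in 11 (16.2%, against 15.0%). The E-box CACGTG occurred in 7 (10.3%, against 9.96%), TATAAA in 2 (2.94%, against 5.43%) and the GC box GGGCGG in 40 (58.8%, against 70.8%). These are counts of letters in a fixed window and say nothing of binding. The log2 fold change between genotypes, CDK4KO minus CDK4WT, had a median of -0.06 in the 28 genes with the ETS letters and -0.01 in the 40 without. For the YY1 letters the medians were -0.01 in 13 genes and -0.03 in 55.

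Libraries held 27841000 to 33618000 counts, and the totals of the genotypes overlapped. The 77 genes took 0.275% to 0.307% of them. VIM, a mesenchymal marker of this line, stood at 7807 to 11510 CPM (counts relative to the scaled library size) and the epithelial marker EPCAM at 7.25 to 11.1 CPM. Of other genes listed beforehand as low or absent, GATA3 stood at 5.98 to 8.32 CPM and FOXA1 at 0.547 to 3.55 CPM. ERBB2, on the same list, was not low, at 95.4 to 109 CPM. CDK4 mRNA averaged 113 CPM (SD 4.04, n = 4) in the CDK4WT libraries and 122 CPM (SD 9.66, n = 4) in those of CDK4KO, so its level does not check the labels. Wherever a library is called CDK4KO, it is the library so labelled.

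No mitochondrial ribosomal protein gene differed between the genotypes at an adjusted p of 0.05. The count was 0 of 77 by edgeR's quasi-likelihood test, adjusted over the whole table by the Benjamini-Hochberg method (smallest adjusted p = 0.263), where 0.0591% of all genes passed. DESeq2 also gave 0, where 2.33% of all genes passed, and limma voom with library weights gave 1, MRPS14, where 2.37% did. At an unadjusted p under 0.05, 5 members were lower in CDK4KO and 1 was higher (6.33% and 6.64% of all genes), so the share of members was close to the background in the downward direction and under it in the upward one. The 4 CDK4KO libraries lay below the 4 CDK4WT libraries in 5 members and above them in 0, where 3.81% and 3.87% of all genes did so. Differences were small and leaned to one side: 56 of 77 log2 fold changes were negative (72.7%, against 48.8% of all genes), with a median of -0.04 against 0.004. The 95% confidence interval of the fold change lay within 1.5-fold either way in 74 of 77 members and within 1.2-fold in 46. MRPS14, MRPS28 and MRPS24 reached past 1.5-fold. In these bulk libraries fewer tumour cells and less RNA per cell cannot be told apart.

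**Figure D1:**
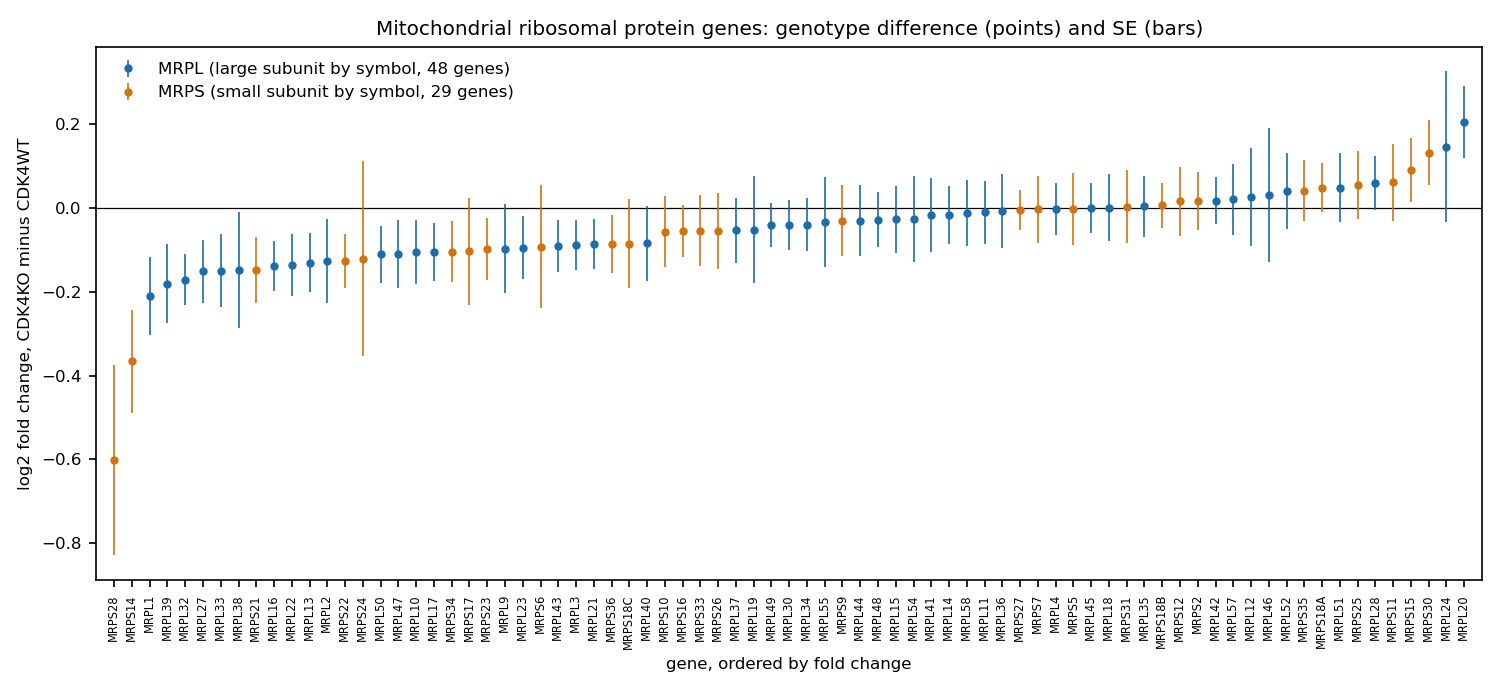
Log2 fold change between genotypes (vertical axis, CDK4KO minus CDK4WT) of the 77 mitochondrial ribosomal protein genes ordered from lowest to highest, points with bars of 1 SE, MRPL genes in blue and MRPS genes in orange. Values run from -0.60 for MRPS28 to 0.21 for MRPL20, with both subunits spread along the whole order and 56 of 77 points below 0.

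Among small subunit genes, MRPS14 and MRPS28 stood lowest. MRPS14, the homologue of bacterial S14 in the head of the small subunit, is at chromosome 1, 175010789 to 175023425 (hg38). It had 12.4, 12.3, 12.1 and 11.6 CPM in CDK4WT replicates 1 to 4 and 10.2, 8.03, 7.92 and 11.5 CPM in CDK4KO. The genotypes did not overlap, and CDK4KO replicate 4 lay just under the lowest CDK4WT library. The log2 fold change was -0.37 ± 0.12 (SE; edgeR adjusted p = 0.263) and stayed between -0.48 and -0.29 as each library was left out. The 10 nearest genes of the table, 5 on each side, had a median log2 fold change of -0.18, and whether the shift of that stretch has a part in the value for MRPS14 was not tested. MRPS28, the mitochondrial relative of bacterial S1 on chromosome 8, was measured at 2.38, 2.80, 2.30 and 2.84 CPM in CDK4WT and 1.71, 2.17, 1.94 and 0.973 CPM in CDK4KO. All 4 CDK4KO libraries were below, and replicate 4 was the lowest, at 30 counts. The log2 fold change of -0.60 ± 0.23 (edgeR adjusted p = 0.295) was the lowest of the members and its SE among the widest. Its largest library value was 2.92 times its smallest, the widest ratio among the members.

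Large subunit genes gave narrower differences. MRPL32 (chromosome 7, 42932200 to 42948958), whose product must be cut by a protease of the inner membrane before it joins the ribosome, had 38.0, 39.4, 37.8 and 41.2 CPM in CDK4WT and 34.6, 36.0, 35.4 and 33.1 CPM in CDK4KO. Its groups were apart, at a log2 fold change of -0.17 ± 0.06 (edgeR adjusted p = 0.275). MRPL16 (chromosome 11, 59806135 to 59810872), the homologue of a bacterial protein near the peptidyl transferase centre, had 39.0, 41.2, 36.7 and 39.7 CPM in CDK4WT and 36.7, 35.4, 35.0 and 35.3 CPM in CDK4KO. CDK4WT replicate 3 and CDK4KO replicate 1 nearly touched, and the log2 fold change was -0.14 ± 0.06 (edgeR adjusted p = 0.367). MRPL21 was also lower in every CDK4KO library, at 24.8 to 26.6 CPM against 27.0 to 27.6 CPM, but with a log2 fold change of only -0.09 ± 0.06 (edgeR adjusted p = 0.576). These were shifts of a few CPM in genes that varied little between libraries.

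MRPL1 (chromosome 4, 77862520 to 77952790), which forms the flexible stalk where spent tRNAs leave, had 23.0, 23.7, 24.4 and 22.3 CPM in CDK4WT and 20.3, 17.7, 19.0 and 23.8 CPM in CDK4KO. CDK4KO replicates 1 to 3 were below every CDK4WT library and replicate 4 was inside their range. The log2 fold change was -0.21 ± 0.09 (edgeR adjusted p = 0.379). MRPL20 (chromosome 1, 1401908 to 1407313), whose bacterial homologue binds ribosomal RNA early in assembly, was the 1 member higher at this p. Its values were 28.8, 33.3, 32.2 and 28.9 CPM in CDK4WT and 37.6, 34.4, 31.3 and 38.9 CPM in CDK4KO. CDK4KO replicate 3 lay among the CDK4WT values, and the log2 fold change was 0.21 ± 0.09 (edgeR adjusted p = 0.340). The genes around MRPL20 had a median log2 fold change of 0.10. Across the 77 members, a gene's log2 fold change and the median of its 10 neighbours had a Spearman correlation of 0.326, a description over genes that share the 8 libraries.

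**Figure D2:**
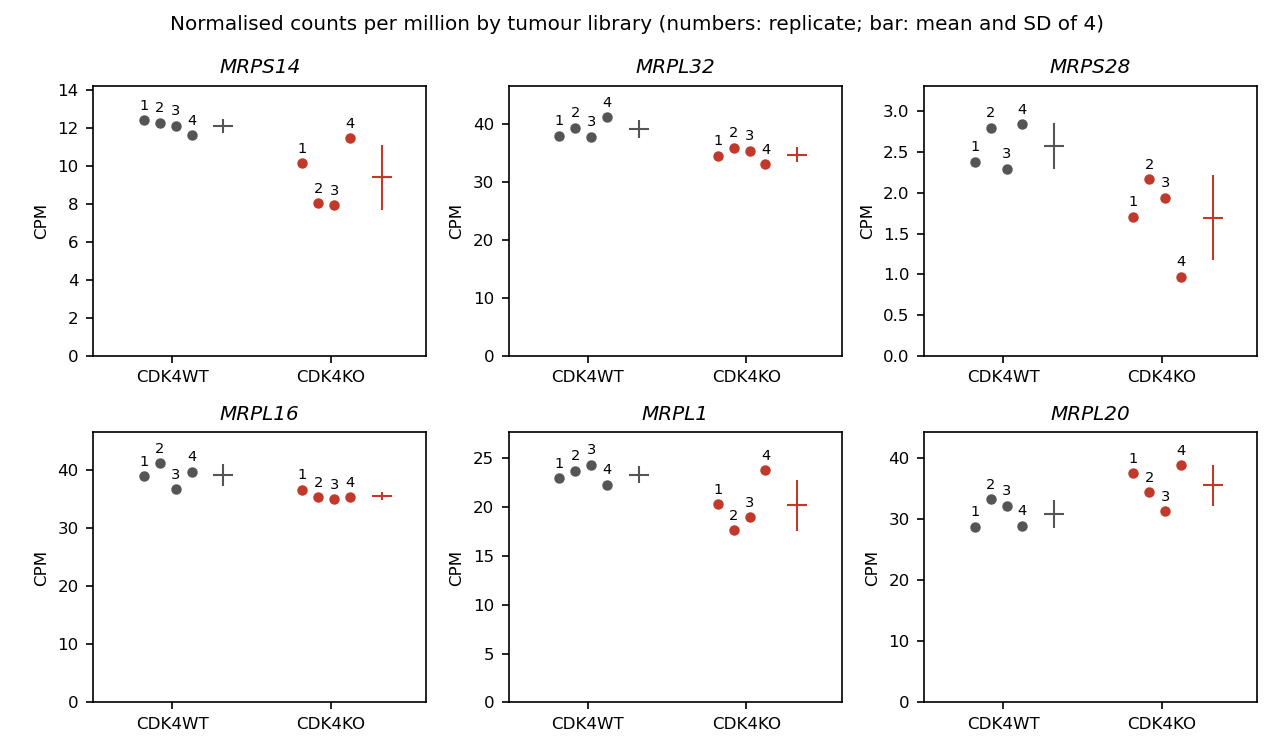
CPM (vertical axis, from 0) by tumour library for the 6 members with an unadjusted p under 0.05, points numbered by replicate, CDK4WT in grey and CDK4KO in red, with the mean and SD of 4. CDK4KO replicate 4 sits near the CDK4WT values for MRPS14 and MRPL1 and is the lowest library for MRPS28 and MRPL32.

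Large and small subunit genes had nearly the same median difference between genotypes. The median log2 fold change was -0.04 in the 48 MRPL genes (37 negative) and -0.05 in the 29 MRPS genes (19 negative). Their difference of 0.01, large minus small, was below 0 in all 8 fits that left out 1 library (from -0.03 up to just under 0), so it has no stable sign. With genes placed by structure, the medians were -0.04 in 50 large subunit genes and -0.05 in 26 small subunit genes. Of the 30 large subunit genes with a bacterial homologue, 24 were negative (median -0.07), and of the 20 others, classed as specific to mitochondria, 13 were (median -0.02). In the small subunit the same classes had 12 of 16 (median -0.06) and 6 of 10 (median -0.03). The 6 members with p under 0.05 all belong to the homologue classes, 4 of 30 (13.3%) and 2 of 16 (12.5%), shares close to the 13% of all genes. The classes specific to mitochondria had 0 of 20 and 0 of 10 at that p, and every class had 0 by adjusted p. MRPS18A and MRPS18B were placed in the latter classes by their sites, although they stem from a bacterial protein. The difference between the classes was not tested.

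The level of the whole set was also described per library. The mean log2 CPM over the 77 genes was 4.86, 4.90, 4.85 and 4.87 in CDK4WT replicates 1 to 4 and 4.78, 4.80, 4.78 and 4.89 in CDK4KO. CDK4KO replicates 1 to 3 lay below every CDK4WT library, and CDK4KO replicate 4 above 3 of the 4. The MRPL genes read 4.96, 4.97, 4.93 and 4.95 in CDK4WT and 4.86, 4.89, 4.87 and 4.97 in CDK4KO, with CDK4KO replicate 4 the highest of all 8. The MRPS genes read 4.70, 4.77, 4.72 and 4.75 in CDK4WT and 4.65, 4.65, 4.64 and 4.75 in CDK4KO, again with replicate 4 among the CDK4WT values. Both subunits thus shared the same split inside CDK4KO. CDK4KO replicate 4 was the highest of its 4 libraries in 42 of 77 members (54.5%), 24 MRPL and 18 MRPS, against 27.8% of all genes. In CDK4WT, replicate 2 was the highest of its 4 in 32 of 77 members (41.6%), against 24.9% of all genes. Without CDK4KO replicate 4, 63 members were negative, the median was -0.08, and 10 had p under 0.05 and were lower (6.81% of all genes in that fit). Still 0 passed an adjusted p of 0.05 (smallest 0.134). The library was picked out for its high member values, so leaving it out lowers the CDK4KO side of these genes by construction. With any other library left out, 50 to 59 members were negative and 2 to 5 were lower at that p. The difference between the means of MRPL and MRPS genes overlapped between genotypes, at 0.19 to 0.26 in CDK4WT and 0.21 to 0.24 in CDK4KO.

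**Figure D3:**
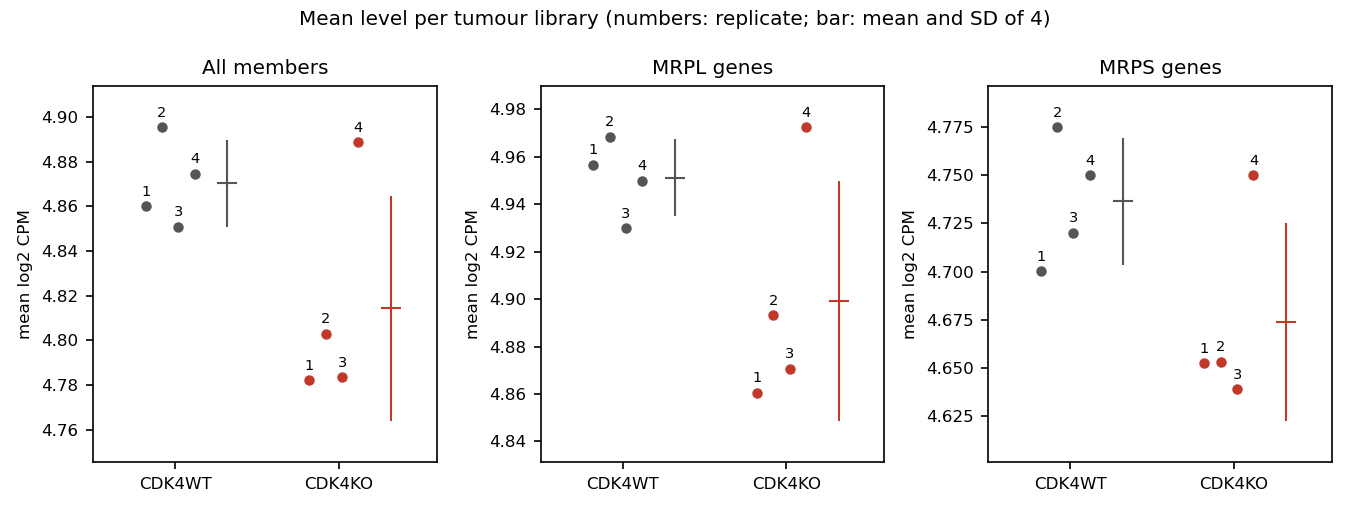
Mean log2 CPM per tumour library (vertical axes, not from 0) of all 77 genes, of the MRPL genes and of the MRPS genes, points numbered by replicate with the mean and SD of 4. In each panel CDK4KO replicates 1 to 3 lie below the 4 CDK4WT libraries and CDK4KO replicate 4 lies among or above them.

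Across the 8 tumours the MRPL and MRPS means moved together, with a Pearson correlation of 0.913 and a Spearman correlation of 0.810. With the genotype means removed the Pearson correlation was 0.856. With the genotype means kept, but without the 2 libraries farthest from the median (CDK4KO replicates 1 and 3), it was 0.850. All libraries share scaling and depth, and the mean over all members had a correlation of 0.163 with log2 library total within genotype. The correlation of the MRPL and MRPS means within genotype rested on 1 library. Without CDK4KO replicate 4 it was 0.408, whereas without any other single library it was 0.833 to 0.964. Gene by gene the co-variation was weak. Over the 2926 pairs of members, log2 CPM with genotype means removed had a median correlation of 0.130, with 23.5% of pairs over 0.5, against a median of -0.00025 and 15.5% for all gene pairs. Pairs within the small subunit had a median of 0.210, pairs across the subunits 0.152 and pairs within the large subunit 0.084. Without CDK4KO replicate 4 the median over all member pairs was 0.012 and 18.5% were over 0.5. With scaling by library size alone it was 0.277.

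**Figure D4:**
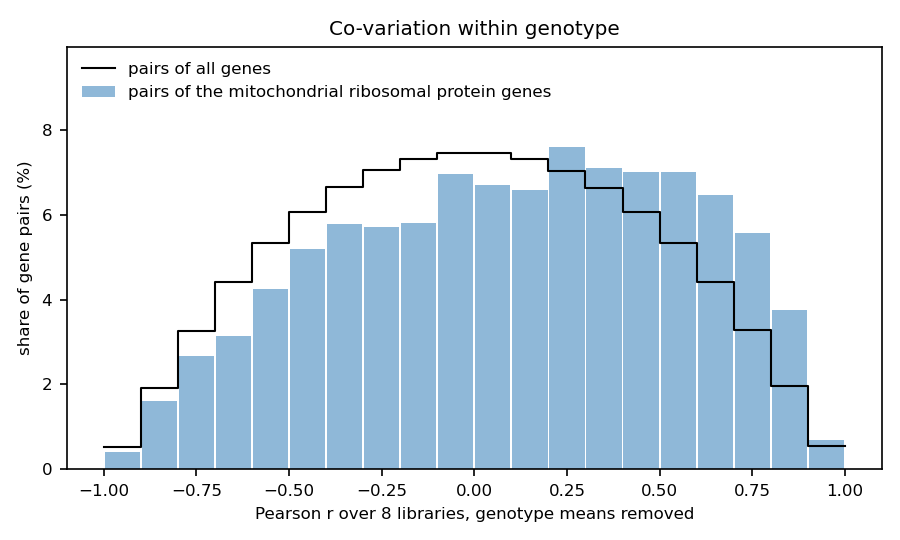
Share of gene pairs (vertical axis, %) by Pearson correlation of log2 CPM over 8 libraries with genotype means removed (horizontal axis), bars for pairs of the 77 members and a line for pairs of all 13546 genes. The bars stand above the line from 0.2 upward and below it at lower values, with a median of 0.130.

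The members that followed the rest most closely were MRPL40, MRPS11 and MRPL27, with a mean correlation to the other members of 0.312, 0.303 and 0.296. MRPL27, whose bacterial homologue reaches into the peptidyl transferase centre, had 30.4, 31.9, 29.7 and 29.7 CPM in CDK4WT and 27.1, 25.4, 26.2 and 31.0 CPM in CDK4KO. MRPL40 had 13.6, 14.4, 12.8 and 13.6 CPM in CDK4WT and 12.0, 12.1, 12.6 and 14.7 CPM in CDK4KO. In both genes CDK4KO replicate 4 was the highest of its group, as in the set as a whole. MRPL49, MRPL33 and MRPS28 ran the other way, with mean correlations of -0.317, -0.317 and -0.264. MRPL33 had 33.0, 31.8, 33.8 and 30.8 CPM in CDK4WT and 29.98, 32.1, 30.3 and 24.3 CPM in CDK4KO, so that replicate 4 was the lowest there. MRPL49 had 69.3 CPM in CDK4KO replicate 4 and 74.1 to 77.0 CPM in the other 7 libraries. The pair with the highest correlation was MRPL37 with MRPS9 (0.967) and the lowest MRPL30 with MRPL46 (-0.985). Both are extremes of 2926 pairs over 8 libraries. Pairs over 0.9 made up 0.68% of member pairs and 0.54% of all gene pairs, and pairs under -0.9 made up 0.41% and 0.52%. MRPS27 was the steadiest member, at 90.9 to 96.6 CPM over all 8 libraries and a log2 fold change of -0.004 ± 0.05. MRPL24 was among the least steady, at 34.5 to 44.6 CPM in CDK4WT and 32.3, 39.7, 42.0 and 62.3 CPM in CDK4KO. Outside the family, the genes whose pattern was most like the member mean within genotype were TIMM17A (0.979), which encodes a channel subunit of the import machinery of the inner membrane, LINC00852 (0.977), AIMP1 (0.971), a scaffold of the cytosolic tRNA synthetase complex, SRP19 (0.971), a signal recognition particle protein, and NDUFA4 (0.965), a cytochrome oxidase subunit, over 8 libraries. These are the extremes of a table of 13546 genes, of which 16.4% had a correlation over 0.5 with that mean. How far these values rest on CDK4KO replicate 4 was not tested.

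The 3 MRPS18 paralogues descend from 1 bacterial protein and occupy different sites. MRPS18C, in the bacterial site, had 21.6, 21.8, 21.3 and 20.6 CPM in CDK4WT and 20.3, 20.2, 16.1 and 23.9 CPM in CDK4KO (log2 fold change -0.08 ± 0.11). MRPS18B, elsewhere in the small subunit, was at 74.1 to 80.2 CPM in CDK4WT and 72.9 to 80.2 CPM in CDK4KO (0.01 ± 0.05), and its sign turned to -0.01 in limma voom. MRPS18A, in the large subunit, was at 27.3 to 28.7 CPM in CDK4WT and 28.5 to 29.9 CPM in CDK4KO (0.05 ± 0.06). The genotypes overlapped in all 3. Exons of another gene overlap 78.9% of the principal transcript of GENCODE 29 in MRPS18C and 56.9% in MRPS18A, so the levels of both are uncertain. MRPS30, the other protein with a small subunit symbol that sits in the large subunit, had 51.5, 52.5, 51.4 and 49.1 CPM in CDK4WT and 49.4, 57.8, 63.6 and 53.2 CPM in CDK4KO, with a log2 fold change of 0.13 ± 0.08 (edgeR adjusted p = 0.512), or 0.07 without CDK4KO replicate 3.

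Levels were compared between genes as mean CPM per kb, taking either all annotated exon bases or the principal transcript of GENCODE 29. Per kb of principal transcript the members ran from 1.55 (MRPS24) to 64.3 (MRPS10), with a median of 24.5, or 24.6 in MRPL and 19.8 in MRPS genes. Per kb of all exons the order was led by MRPS10 (64.3), MRPL14 (60.8) and MRPL15 (48.6) and closed by MRPS28 (1.18), MRPL46 (0.584) and MRPS24 (0.420). The ranks by the 2 lengths had a Spearman correlation of 0.789. MRPS10, a homologue of bacterial S10, was at 119 to 153 CPM in CDK4WT and 124 to 148 CPM in CDK4KO. MRPL14, which lies at the face between the subunits, was at 53.0 to 62.1 and 54.5 to 62.6 CPM, and MRPL15 at 55.3 to 63.5 and 49.9 to 63.6 CPM. None of the 3 separated the genotypes. Several of the lowest genes share exons with another gene. In 11 members over 25% of the principal transcript overlaps exons of another gene, and their median was 7.85 CPM per kb of principal transcript, against 24.7 in the 47 with no overlap. The overlap was 85.7% in MRPS24, which a readthrough gene (URGCP-MRPS24) spans, 71.1% in MRPL46 and 55.4% in MRPS28, and 5 of the 7 lowest members were above 25%. How reads shared by 2 genes were counted is not stated in any source used here, and the levels of these genes are uncertain. MRPS24 had 0.794, 1.18, 1.22 and 1.39 CPM in CDK4WT and 0.821, 0.933, 1.09 and 1.36 CPM in CDK4KO, at as few as 24 counts in a library. In the 37 members with no exon overlap at all the median log2 fold change was -0.03.

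**Figure D5:**
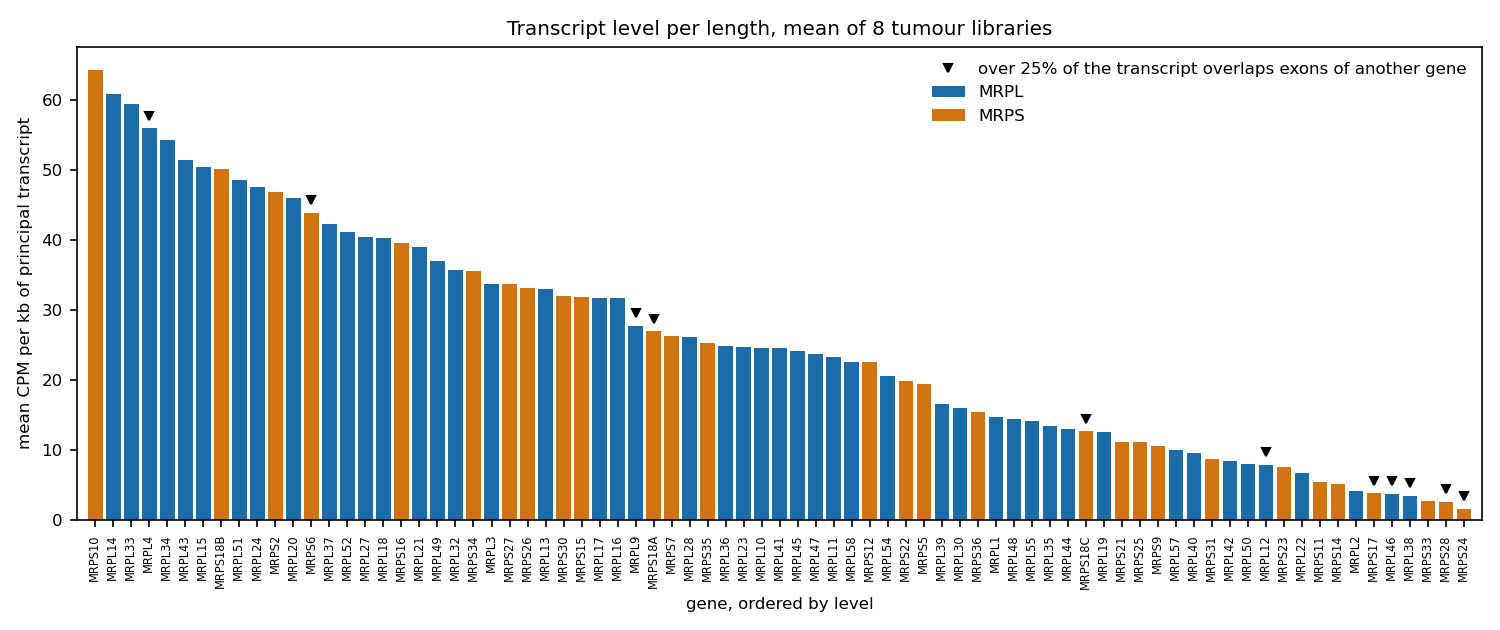
Mean CPM per kb of principal transcript over the 8 libraries (vertical axis, from 0) for the 77 genes in descending order, MRPL in blue and MRPS in orange, with triangles over the 11 genes that share more than 25% of the transcript with another gene's exons. Of the triangles, 5 stand over the 7 lowest bars.

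In RefSeq, 26 of the 68 members with a promoter start within 1000 bases of a gene on the opposite strand, and 20 of these partners were measured. The partners had a median log2 fold change of 0.04, with 9 negative. The 20 members beside them had a median of -0.0035, with 11 negative. The share of all genes with such a partner was not counted. MRPL46 and MRPS11 are partners of each other. MRPL46 was at 3.90, 3.98, 3.30 and 3.67 CPM in CDK4WT and 2.80, 4.45, 4.08 and 3.86 CPM in CDK4KO (log2 fold change 0.03 ± 0.16). MRPS11 was at 19.1, 19.9, 18.7 and 18.03 CPM in CDK4WT and 17.9, 19.3, 18.5 and 23.3 CPM in CDK4KO (0.06 ± 0.09). Their correlation within genotype was 0.368, rank 946 of the 2926 member pairs. PPP1R10, a phosphatase regulator that starts near MRPS18B, had a log2 fold change of 0.44 (edgeR adjusted p = 0.0508) beside 0.01 for MRPS18B, and was picked out after its values were seen.

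Other genes of mitochondrial translation gave few differences too. By edgeR's quasi-likelihood test 0 genes of the lists that follow had an adjusted p under 0.05 in either direction. Of 6 listed proteins without an MRP symbol, of the ribosome or, as NDUFAB1, bound to it in assembly, 3 were negative (median -0.01). Of 28 assembly factors, 12 were negative (median 0.01), and TRUB2, a pseudouridine synthase, had a log2 fold change of 0.16 ± 0.07. Of 18 translation factors, 12 were negative (median -0.06), and LRPPRC, which stabilises mitochondrial messenger RNAs, was at 208 to 213 CPM in CDK4WT and 159 to 206 CPM in CDK4KO with no overlap (-0.16 ± 0.08). Of 22 genes that charge mitochondrial tRNAs, 14 were negative (median -0.07). Of 19 genes of mitochondrial transcription and RNA processing, 7 were negative (median 0.01), and PNPT1, a polynucleotide phosphorylase, was lower in every CDK4KO library (-0.27 ± 0.08), whereas FASTKD5, an RNA-binding protein, was higher in every one (0.29 ± 0.09).

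The mitochondrially encoded genes, among them the 2 ribosomal RNAs around which the proteins assemble, had 11 of 15 negative and a median of -0.09. Their mean log2 CPM was 10.591 to 10.748 in CDK4WT and 10.516 to 10.585 in CDK4KO, just without overlap, whereas their summed CPM overlapped. In 2 of the 15 (13.3%), MT-ATP8 and MT-ND4, all CDK4KO libraries lay below all CDK4WT libraries, as in 3.81% of all genes. MT-RNR1 and MT-RNR2, the small and large subunit RNAs, had log2 fold changes of -0.31 ± 0.14 and -0.18 ± 0.13 in libraries made to favour messenger RNA. The mean of these 15 genes had a correlation with the member mean of -0.304 within genotype. The means of the proteins without an MRP symbol and of the assembly factors followed the member mean at 0.873 and 0.814 within genotype. The mean of the translation factors did so at only 0.044, over the same 8 libraries, which share scaling. Without CDK4KO replicate 4 the first pair were 0.105 and 0.769. Of 11 regulators of mitochondrial genes, 4 were negative (median 0.05). GABPA, whose core letters are capitalised in the promoters shown above, stood at 33.2 CPM (SD 1.39) in CDK4WT and 34.3 CPM (SD 1.65) in CDK4KO. YY1 stood at 187 CPM (SD 2.13) in CDK4WT and 193 CPM (SD 6.64) in CDK4KO. PPRC1, a coactivator, was at 0.21 ± 0.08 (edgeR adjusted p = 0.324) and passed at 0.0484 without CDK4KO replicate 1.

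Lists of host cell markers were read beside these values. The counts are of human genes, and how mouse reads were handled is unknown. The fibroblast list (7 of 10 genes measured, without PDGFRA, DCN and LUM) summed to 817 to 1237 CPM in CDK4WT and 714 to 1245 CPM in CDK4KO, lowest in CDK4KO replicate 4, the library where the members stood highest in their group. Its mean had a correlation of -0.855 with the member mean within genotype, and -0.504 without that library. The endothelial list (8 of 10 measured, without CDH5 and CLDN5) summed to 334 to 375 CPM in CDK4WT and 396 to 463 CPM in CDK4KO, with no overlap. Of its 8 genes, 7 had a positive log2 fold change (median 0.20). In 3 of them all CDK4KO libraries lay above all CDK4WT libraries, as in 3.87% of all genes. This list was chosen with earlier results of these data known, so its count and its sum only describe these libraries. Most of that sum came from ROBO4 and ESAM, both higher in every CDK4KO library, while VWF, TEK and KDR overlapped and TIE1 was at 61.1 to 84.9 CPM in CDK4KO against 82.4 to 96.7 CPM in CDK4WT. The macrophage and leukocyte list (6 of 11) summed to 17.5 to 30 CPM and 21.7 to 23.5 CPM, the muscle list (3 of 10) to 9.94 to 31.9 CPM and 6.58 to 14.1 CPM, and the fat list (2 of 6) to 2.98 to 4.89 CPM and 2.95 to 4.21 CPM. Their part in the values of the mitochondrial ribosomal protein genes was not tested.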

How the data were processed

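The authors deposited 1 table of raw counts of reads per gene for 8 tumours. RNA was extracted with Trizol and libraries enriched for mRNA, according to the labels' protocols. Tools named in the submitters' processing notes are cutadapt, STAR 2.7.11a, featureCounts 2.0.4 and DESeq2 1.46.0, with the build hg38. Which annotation release and strand setting were used, and what was done with mouse reads, is not stated in any source used here. Each deposited gene exceeds 1 CPM in at least 4 libraries, and filterByExpr removed 0 genes. CDK4KO columns were matched to replicates through the library names. Symbols were found for 13524 of 13546 genes, and GENCODE 29 gave coordinates.

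The genotype comparison used edgeR 4.0.16 in R 4.3.3: TMM scaling and the robust quasi-likelihood test, with Benjamini-Hochberg adjustment across the whole table and a threshold of 0.05. Log2 CPM used a prior count of 2. Alternatives were DESeq2 1.42.0, limma 3.58.1 voom, other scalings and filters, a replicate block and each library left out. In 3 simulations of this comparison with 13546 genes, 72.1% of 1.5-fold and 94.5% of 2-fold changes were recovered. The simulated counts followed the dispersion trend, with no spread particular to a gene and no deviating library. Recovery in the data may therefore be lower. Whether each tumour came from its own mouse is not in the labels, so the p-values reflect the spread between libraries alone, which may be technical. Members and lists were chosen with earlier results of these data known. Named members are those with p under 0.05, the 3 highest and lowest per kb, the 3 most and least correlated, the MRPS18 genes, MRPS30 and those whose groups do not overlap. MRPL24, MRPS27, PPP1R10 and the named genes of the other lists were picked after their values were seen. A gene of the other lists is not reported here.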

Additional observations from a re-analysis of the deposited data

Results flagged for a closer look

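Of 62 groups of 4 libraries checked for a library far from the others, 2 were picked out, and chance picks about 1 in 20. The mean log2 CPM of the small subunit genes was 4.7499 in CDK4KO replicate 4 and 4.6391 to 4.6532 in the other 3 CDK4KO libraries, a gap of 0.873 of the whole range. For the regulators of mitochondrial genes, CDK4KO replicate 1 stood at 5.0947 and the other 3 at 5.2712 to 5.2903, a gap of 0.902 of the range.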

How the results depend on the processing

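Over all genes 8 passed in the main comparison, 14 with library size alone (50% higher, against 75%), 315 with DESeq2, 321 with limma voom, 13 with the replicate block and 0 to 183 as each library was left out. Members past the test numbered 1 with limma voom (MRPS14, -0.51, adjusted p = 0.0251) and 0 in every other setting run. The members' median log2 fold change was -0.08 to -0.02 with 1 library left out, and 50 to 63 members were negative over all settings. The MRPS median was -0.07534 to -0.0043 with 1 library left out. The MRPL minus MRPS difference was -0.01029 when genes under an average log2 CPM of 2 were dropped, and -0.03153 to -2.654e-05 with 1 library left out. The correlation of the 2 subunit means was 0.8558 with genotype means removed, 0.8095 by Spearman and 0.8498 without the 2 farthest libraries. The median over member pairs was 0.2774 with library size alone and 0.012 to 0.165 with 1 library left out. Of 354 alternative values of named members, 339 kept sign and side of the threshold. With 1 library left out, ranges crossed 0 for MRPL14 (-0.06415 to 0.0123), MRPL15 (-0.08178 to 0.0337), MRPL46 (-0.0541 to 0.15), MRPS11 (-0.0267 to 0.10), MRPS18B (-0.0152 to 0.03186) and MRPS18C (-0.18 to 0.0076). MRPS18B was also at -0.0145 in limma voom. The causes were not tested.

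Replicate numbers did not pair the samples: deviations of same-numbered libraries had correlations of -0.03, -0.01, 0.003 and 0.19, and only those of replicate 4 correlated best with their own number. With the replicate block 56 members were negative (median -0.04), 3 had p under 0.05 and were lower (6.22% of all genes in that fit), and 0 passed. Low counts limit the values of MRPS24 and MRPS28, which had as few as 24 and 30 counts in a library.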
